A study of Homo sapiens with 8 samples.

Results

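10 epithelial cytoskeleton and adhesion genes are described here: the type II keratins KRT7, KRT8 and KRT81, the type I keratins KRT14, KRT17, KRT18 and KRT19, and the desmosomal plaque genes DSP, JUP and PKP2. They were taken by gene name from the deposited count table, where all 10 were found, each in 1 row, among 60708 genes. The cells were HS578T, a human cell line derived from a breast cancer, and RNA was sequenced in 8 libraries, 2 in each of 4 groups. All groups, controls included, were transfected with 25 µg of plasmid DNA: a green fluorescent protein plasmid in the Mock groups and one for the heat shock transcription factor HSF2 in the HSF2oe groups. After 24 h they were kept for another 24 h in assay medium alone (control) or with 10 ng/ml of the cytokine TGF-β1 (TGF-β). Libraries of the same group are biological replicates according to the design text. Groups were taken from the sample titles, because the treatment field of the labels contradicts them: it gives all 4 Mock libraries as DMSO and all 4 HSF2oe libraries as TGF-β1.

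Keratins are the intermediate filament proteins of epithelial cells, and each filament is built from pairs of a type I and a type II chain. KRT8 and KRT18 are the usual pair of simple epithelia, with KRT7 and KRT19 often beside them. KRT14 belongs to basal and myoepithelial cells, KRT17 is a stress and wound keratin, and KRT81 is a hair keratin. Desmosomes tie keratin filaments to the cell surface: desmosomal cadherins bind plakoglobin (JUP) and plakophilins (PKP2), and these bind desmoplakin (DSP), which holds the filaments.

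Keratin genes are close copies of each other, and this bears on how their reads can be counted. Of the 50-base windows of its coding transcript, 23.8% were shared with transcripts of other genes for KRT14, 17.4% for KRT17, 52.5% for KRT18, 41.3% for KRT8, 44.6% for KRT81 and 10.8% for KRT7 (GENCODE 29 transcripts). For KRT81, the hair keratin KRT86 alone shared 38.4% of the windows. These are shares of 50-base windows, while read pairs were counted. They are not the part of reads left uncounted, which was not measured. Matches on either strand were counted, so windows shared with a gene that overlaps at the same place are included. Windows shared through such overlap are not copies at another place. KRT7-AS, an antisense gene that overlaps KRT7, shared 10.4% of the windows of KRT7. KRT8, which overlaps KRT18 on the opposite strand, shared 23.8% of those of KRT18. None of the windows of DSP (0%) and JUP (0%) were shared, and those of KRT19 and PKP2 were shared in 1.79% and 8.40%. The coding stretches below were chosen to show how similar members are to a related gene and to a pseudogene, with the 3 and the 5 bases that differ in each pair in capitals. They lie in exon 4 of KRT14 (chr17:41583769-41583858, minus strand), exon 4 of KRT17 (chr17:41621602-41621691, minus strand), exon 9 of KRT8 (chr12:52897444-52897533, minus strand) and the single-exon pseudogene KRT8P12 (chr3:160569141-160569230, plus strand), all in GRCh38.
KRT14: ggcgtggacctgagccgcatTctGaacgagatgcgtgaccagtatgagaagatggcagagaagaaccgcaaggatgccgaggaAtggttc
KRT17: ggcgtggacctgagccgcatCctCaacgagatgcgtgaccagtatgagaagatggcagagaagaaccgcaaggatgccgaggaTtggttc
KRT8: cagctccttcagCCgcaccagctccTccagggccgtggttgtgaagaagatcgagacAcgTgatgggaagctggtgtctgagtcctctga
KRT8P12: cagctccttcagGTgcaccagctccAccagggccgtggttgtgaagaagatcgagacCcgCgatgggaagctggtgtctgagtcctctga

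Reads that fit several places were not counted, per the file headers, so counts of the keratins come from the bases that tell the copies apart. The 51 genes named as KRT8 pseudogenes held counts equal to 51.9% of those of KRT8 itself, summed over the 8 libraries. The 68 named after KRT18 held counts equal to 0.728% of those of KRT18. KRT8 and KRT18 are neighbours on opposite strands, and 7.63% of the exon bases of KRT8 and 17.1% of those of KRT18 are annotated to both. Of KRT7, 7.85% of the exon bases also belong to an antisense gene (KRT7-AS) or a keratin pseudogene (KRT87P). Counting did not use strand, so reads from these shared bases cannot be told apart by gene.

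Total gene counts ran from 17427645 to 34336107 per library. Levels are CPM, counts scaled to a common library total, here with TMM, a method that aligns the bulk of genes between libraries. A count of 0 allows up to 3 counts, which is 0.0851 to 0.195 CPM by library, and this covers counting error only. HSF2 lay between 5.4 and 8.36 CPM in the Mock libraries and between 489 and 937 CPM in the HSF2oe libraries, so no library went against its plasmid label. In bulk samples, fewer cells that express a gene and less RNA per cell cannot be told apart.

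Markers of an epithelial state were near absent from these cells. Of 10 epithelial genes, 0 reached 1 CPM in every library, their summed level was 1.89 to 3.97 CPM, and CDH1, the epithelial cadherin, held 6 to 20 counts per library. EPCAM held 0 to 4 counts, ESRP1 0 to 3 and GRHL2 0 to 2. All 9 mesenchymal markers, among them VIM and FN1, passed 1 CPM in every library, with a summed level of 34103 to 73488 CPM. The keratins and plaque genes described here were therefore measured in cells with mesenchymal markers high and most other epithelial markers low.

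Members differed widely in level. KRT14, KRT17 and KRT18 were the abundant members, DSP, JUP and KRT8 were intermediate, KRT7 was low, KRT81 was close to the detection limit, and KRT19 and PKP2 were at it. In the Mock control group, mean levels per kilobase of annotated exon were 113.8 ± 18.1 CPM for KRT14, 82.3 ± 7.21 for KRT18, 59.2 ± 4.87 for KRT17, 5.84 for JUP (the libraries were equal), 4.41 ± 0.873 for DSP, 3.61 ± 0.257 for KRT8, 1.35 ± 0.0673 for KRT7 and 0.239 ± 0.0361 for KRT81 (SD, n = 2). With TGF-β in Mock cells KRT14 and KRT17 overlapped at the top (211 ± 39.3 and 207 ± 12.2 CPM per kilobase), as did DSP and JUP in HSF2oe control cells (4.53 ± 0.456 and 4.25 ± 0.0601) and KRT7 and KRT8 in HSF2oe cells with TGF-β (2.45 ± 0.126 and 2.35 ± 0.104). The order depends on the length used: annotated exons of KRT8 span 6881 bases and the transcript with its longest coding span 1687. Per kilobase of 1 coding transcript, a choice added after the data were seen, KRT18 had the highest mean in Mock control cells (177.8 ± 15.6 CPM), overlapping with KRT14 (154 ± 24.5) and followed by KRT17 (116.8 ± 9.62), while KRT8 (14.7 ± 1.05) stood above JUP (9.02) and DSP (6.01 ± 1.19).

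**Figure D1:**
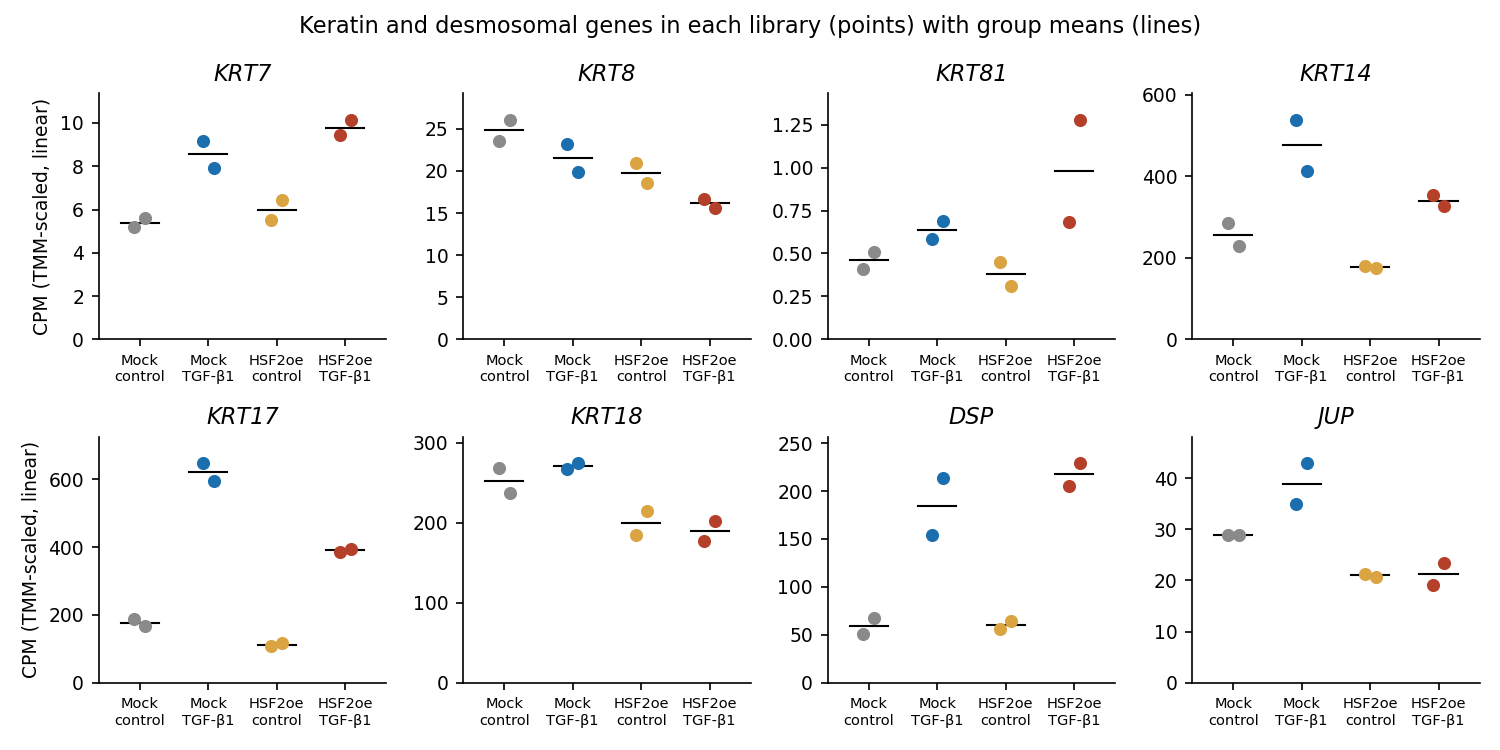
Level of the 8 tested members in each library (points, TMM-scaled CPM on a linear axis from 0; each gene has its own scale) with the mean of each group as a line. KRT17, KRT14 and DSP sit higher in both TGF-β groups than in the matching controls, while KRT18 and JUP sit lower in the HSF2oe groups than in the Mock groups.

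DSP, the basal keratin gene KRT14 and the stress keratin gene KRT17 were among the members that rose with TGF-β in Mock cells. Of the 8 members tested, 5 rose (KRT17, DSP, KRT14, KRT7 and JUP) and 0 fell at an adjusted p below 0.05 in the quasi-likelihood test of edgeR (Benjamini-Hochberg adjustment over all genes). Of all 16008 genes tested, 13.8% passed in that comparison, 7.32% higher and 6.5% lower. The median log2 change was 0.56 over the tested members and 0.00 over all genes. In HSF2oe cells 4 members rose (KRT17, DSP, KRT14 and KRT7) and 0 fell, where 8.26% of all genes passed, 4.45% higher and 3.82% lower. There the median log2 change was 0.82 over the tested members and -0.01 over all genes.

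Among the type I keratins, KRT17 (ENSG00000128422.17, chr17:41619442-41624842, minus strand) changed by the most. Its level was 188 and 167 CPM in the Mock control libraries and 647 and 595 with TGF-β, then 108 and 116 in the HSF2oe control libraries and 387 and 395 with TGF-β. The lowest library with TGF-β was higher than the highest control library, whichever plasmid it carried. The fold change was 3.50 in Mock cells (log2 1.81 ± 0.10 SE, adjusted p = 3.28e-07) and 3.49 in HSF2oe cells (log2 1.80 ± 0.10 SE, adjusted p = 5.36e-07).

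KRT14 (ENSG00000186847.6, chr17:41582279-41586895, minus strand), a basal keratin, rose as well, by less. It had 285 and 228 CPM in Mock control, 538 and 413 with TGF-β, 179 and 176 in HSF2oe control, then 353 and 328 with TGF-β there. In each plasmid group both treated libraries were above both controls. Its log2 change was 0.89 ± 0.13 SE in Mock cells (adjusted p = 0.000603) and 0.94 ± 0.14 in HSF2oe cells (adjusted p = 0.000659). Levels of KRT17 per length relative to KRT14 were 0.451 to 0.552 in the 4 control libraries and 0.825 to 1.08 in the 4 libraries with TGF-β.

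KRT18 (ENSG00000111057.11, chr12:52948871-52952906, plus strand), the simple-epithelial type I chain, did not pass the test with TGF-β. Its level was 268 and 237 CPM in Mock control and 268 and 275 with TGF-β, and 185 and 215 CPM in HSF2oe control, then 177 and 202 with TGF-β there, so treated and control libraries overlapped. The log2 change was 0.10 (95% interval -0.13 to 0.34, adjusted p = 0.627) in Mock cells and -0.08 (-0.31 to 0.16, adjusted p = 0.777) in HSF2oe cells. The level of KRT17 per length relative to KRT18 was 0.555 to 0.722 in the control libraries and 2.00 to 2.47 with TGF-β. KRT19 (ENSG00000171345.13, chr17:41523617-41528308, minus strand) held 2 and 3 counts in Mock control, 1 and 0 with TGF-β, 6 and 3 in HSF2oe control, then 6 and 1 with TGF-β there. It was too low to test.

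Of the type II keratins, KRT7 (ENSG00000135480.16, chr12:52232520-52252186, plus strand) rose with TGF-β. It had 5.21 and 5.59 CPM in Mock control and 9.18 and 7.92 with TGF-β, and 5.52 and 6.45 CPM in HSF2oe control, then 9.43 and 10.1 with TGF-β there, with no overlap of treated and control libraries. The log2 change was 0.66 ± 0.17 SE in Mock cells (adjusted p = 0.018) and 0.71 ± 0.16 in HSF2oe cells (adjusted p = 0.0135). The call in Mock cells was lost without either Mock control library (adjusted p = 0.121 and 0.0616, without the first and second), without the first Mock TGF-β library (0.114), and with scaling by library totals alone (log2 0.40, adjusted p = 0.101). The call in HSF2oe cells was lost without the first HSF2oe control library (0.131) or the second HSF2oe TGF-β library (0.0907).

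KRT8 (ENSG00000170421.12, chr12:52897187-52949954, minus strand), the partner of KRT18, did not pass the test with TGF-β. It had 23.6 and 26.1 CPM in Mock control, 23.2 and 19.9 with TGF-β, 20.9 and 18.5 in HSF2oe control, then 16.7 and 15.6 with TGF-β there. Treated libraries were lower than controls of the same plasmid, by a log2 value of -0.21 (95% interval -0.47 to 0.06, adjusted p = 0.325) in Mock cells and -0.29 (-0.55 to -0.02, adjusted p = 0.207) in HSF2oe cells. With library totals alone both falls of KRT8 passed, at a log2 change of -0.47 (adjusted p = 0.0136) and -0.45 (0.0303). With pseudogene counts added they were smaller, at -0.10 (adjusted p = 0.611) in Mock cells and -0.16 (0.441) in HSF2oe cells. KRT81 (ENSG00000205426.10, chr12:52285913-52291534, minus strand) held 11 and 18 counts in Mock control, 9 and 14 with TGF-β, 14 and 10 in HSF2oe control, then 22 and 30 with TGF-β there. Its log2 change with TGF-β was 0.46 ± 0.56 SE (adjusted p = 0.678) in Mock cells and 1.34 ± 0.52 (adjusted p = 0.156) in HSF2oe cells, so the wide intervals leave its response unresolved at this depth.

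In the desmosomal plaque, DSP (ENSG00000096696.15, chr6:7541617-7586714, plus strand) rose in both plasmid groups. It had 50.7 and 67.1 CPM in Mock control and 155 and 214 with TGF-β, and 56.2 and 64.8 CPM in HSF2oe control, then 206 and 229 with TGF-β there. Every treated library stood above every control library. The fold change was 3.13 in Mock cells (log2 1.65 ± 0.16 SE, adjusted p = 2.22e-05) and 3.59 in HSF2oe cells (log2 1.84 ± 0.16, adjusted p = 1.16e-05).

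JUP (ENSG00000173801.17, chr17:41754604-41786931, minus strand), which links the cadherins to desmoplakin, had 28.9 CPM in both Mock control libraries and 34.9 and 42.9 with TGF-β. In HSF2oe cells it had 21.2 and 20.8 CPM in control and 19.1 and 23.5 with TGF-β. The treated libraries were above the controls in Mock cells and overlapped them in HSF2oe cells. The log2 change was 0.43 ± 0.13 SE (adjusted p = 0.0349) in Mock cells and 0.02 ± 0.13 (95% interval -0.26 to 0.29, adjusted p = 0.962) in HSF2oe cells. The call in Mock cells was lost with library totals alone (log2 0.17, adjusted p = 0.339) and without either Mock control library (0.156 and 0.132), the second Mock TGF-β library (log2 0.27, 0.331) or either HSF2oe control library (0.0501 and 0.0505). PKP2 (ENSG00000057294.16, chr12:32790755-32896777, minus strand) held 0 to 6 counts per library and was not tested. The level of JUP per length relative to DSP was 0.865 to 1.54 in control libraries, 0.541 and 0.609 in Mock cells with TGF-β, and 0.251 and 0.277 in HSF2oe cells with TGF-β.

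The sequence upstream of DSP is shown because DSP rose in both plasmid groups. It covers 196 bases just before the annotated start of the gene, chr6:7541421-7541616, plus strand (RefSeq, GRCh38.p14), with matches of the SP1 motif GGGCGG on either strand in capitals, where neighbouring matches can overlap.
DSP: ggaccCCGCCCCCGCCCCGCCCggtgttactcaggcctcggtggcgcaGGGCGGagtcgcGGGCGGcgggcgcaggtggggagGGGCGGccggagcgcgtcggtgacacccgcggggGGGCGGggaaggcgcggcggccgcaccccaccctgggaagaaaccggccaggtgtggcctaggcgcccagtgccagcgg
The motif matched 7 times, and 34.2% of 35116 upstream windows of the same length held at least 1 match. All windows were the same first part of a RefSeq promoter. They end before the RefSeq start site, which for DSP is at 7541671, so bases just before that site were not searched. There were 0 matches on either strand of the AP-1 motif TGANTCA (in 5.17% of windows), the SMAD motifs GTCTAGAC (0.142%) and CAGAC (32.0%), the heat shock pairs GAANNTTC (4.52%) and TTCNNGAA (5.23%), and TATAAA (7.54%). These are matches of letters in this window only. The promoter table held 3 of the 10 members.

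**Figure D2:**
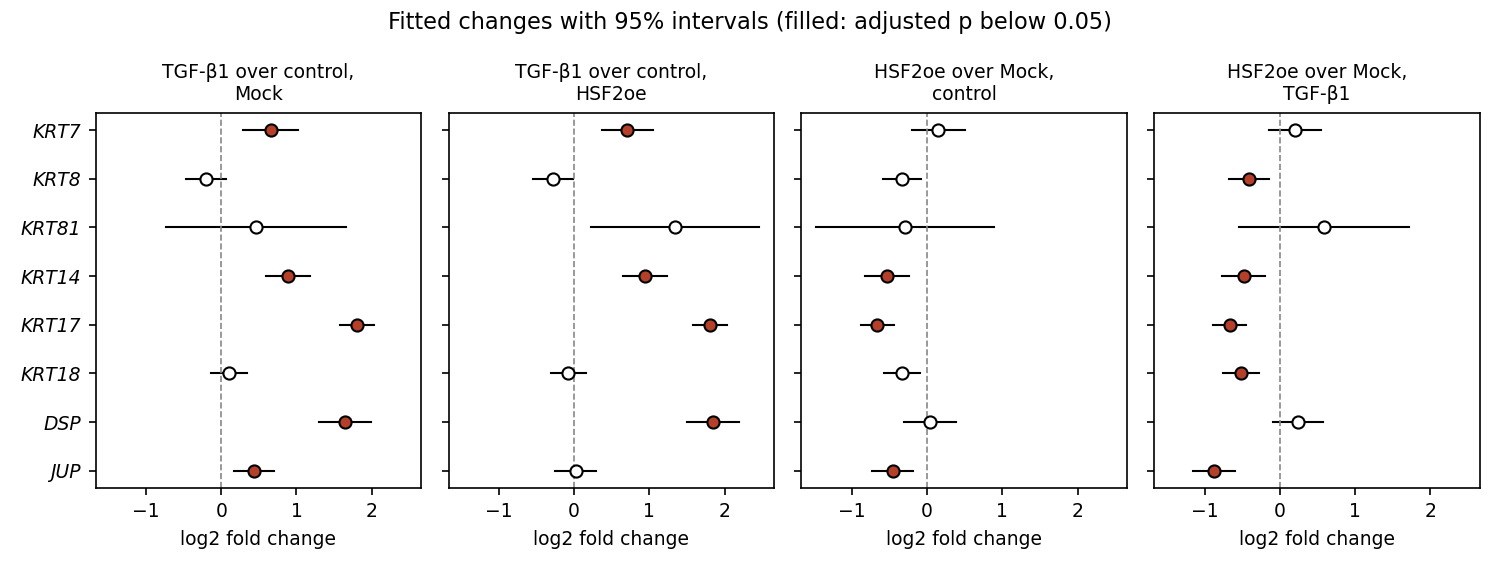
Fitted log2 fold change of the 8 tested members in 4 comparisons, with 95% intervals (filled points have an adjusted p below 0.05). KRT17 and DSP lie beyond 1 in both TGF-β panels, and KRT17, KRT14 and JUP are filled below 0 in both HSF2oe panels.

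The HSF2 plasmid was accompanied by lower KRT17, KRT14 and JUP. In assay medium alone these 3 of the 8 tested members fell and 0 rose, where 12.1% of all genes passed, 4.88% higher and 7.22% lower. With TGF-β 5 fell (JUP, KRT17, KRT18, KRT14 and KRT8) and 0 rose, where 21.5% of all genes passed, 9.6% higher and 11.9% lower. The median log2 change of the tested members was -0.33 without and -0.45 with TGF-β, and 0.00 over all genes in both.

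KRT17 was lower in each HSF2oe library than in each Mock library of the same medium. Its log2 change was -0.66 ± 0.10 SE without TGF-β (adjusted p = 0.00168) and -0.67 ± 0.10 with it (adjusted p = 0.000669). KRT14 fell by 0.53 ± 0.13 on the log2 scale without TGF-β (adjusted p = 0.0217) and by 0.48 ± 0.13 with it (adjusted p = 0.0216). The calls of KRT14 were less steady. Without TGF-β the call was lost without the first Mock control library (log2 -0.36, adjusted p = 0.164) or either HSF2oe control library (0.126 and 0.0909). With TGF-β it was lost without the first Mock TGF-β library (log2 -0.28, adjusted p = 0.213), without either HSF2oe TGF-β library (0.065 and 0.0997), and with library totals alone (log2 -0.29, adjusted p = 0.129).

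JUP fell by 0.46 ± 0.13 on the log2 scale without TGF-β (adjusted p = 0.0315) and by 0.88 ± 0.13 with it (adjusted p = 0.000566). The fall with TGF-β passed under every alternative tried. The fall without it was lost with library totals alone (log2 -0.37, adjusted p = 0.0722) and when any of the 4 libraries compared was left out (0.0908 and 0.148 without the first and second Mock control, 0.162 and 0.122 without the first and second HSF2oe control). DSP did not pass in either medium: its log2 difference was 0.04 (95% interval -0.30 to 0.38) without TGF-β and 0.24 (-0.10 to 0.57) with it, with adjusted p of 0.911 and 0.311. With library totals alone the difference with TGF-β passed (log2 0.43, adjusted p = 0.0379).

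The simple-epithelial pair KRT8 and KRT18 passed the test between plasmids with TGF-β present. KRT18 fell by 0.52 ± 0.11 on the log2 scale (adjusted p = 0.00534). Without TGF-β its log2 difference was -0.33 (95% interval -0.57 to -0.10, adjusted p = 0.0641), again with both HSF2oe libraries below both Mock libraries. That difference passed with no filter on low counts (adjusted p = 0.0291) and in DESeq2 (0.0406). KRT8 fell by 0.41 ± 0.13 with TGF-β (adjusted p = 0.0332), and its difference without TGF-β was -0.33 (-0.59 to -0.07, adjusted p = 0.089), or -0.10 (adjusted p = 0.56) with pseudogene counts added. The call of KRT18 was lost without the first HSF2oe TGF-β library (adjusted p = 0.0721) and with library totals alone (log2 -0.32, adjusted p = 0.053). That of KRT8 was lost in 7 of 17 alternatives. When the counts of KRT8 pseudogenes were added its log2 difference was -0.16 (adjusted p = 0.311), with library totals alone -0.22 (0.223), and with only the libraries compared -0.40 (0.0566). With no filter on low counts it was -0.39 (0.0504), and it was -0.30 (0.197) without the first Mock TGF-β library and -0.44 (0.11) and -0.36 (0.146) without the first and second HSF2oe TGF-β libraries. KRT18 stood 19.9 to 31.0 times above KRT8 per kilobase of annotated exon, and 10.5 to 16.4 times above it per kilobase of 1 coding transcript. Per kilobase of annotated exon that ratio was 25.5 and 20.4 in Mock control and 25.8 and 31.0 with TGF-β. These did not overlap, but the nearest, 25.5 and 25.8, were almost equal. In HSF2oe cells the ratio was 19.9 and 26.0 in control, then 23.9 and 28.96 with TGF-β, with overlap. A change of this ratio was not tested.

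KRT7 and KRT81 did not pass between plasmids. The log2 difference of KRT7 was 0.15 (95% interval -0.21 to 0.50, adjusted p = 0.611) without TGF-β and 0.20 (-0.15 to 0.55, adjusted p = 0.426) with it. That of KRT81 was -0.29 (-1.47 to 0.89, adjusted p = 0.78) and 0.59 (-0.55 to 1.72, adjusted p = 0.47).

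**Figure D3:**
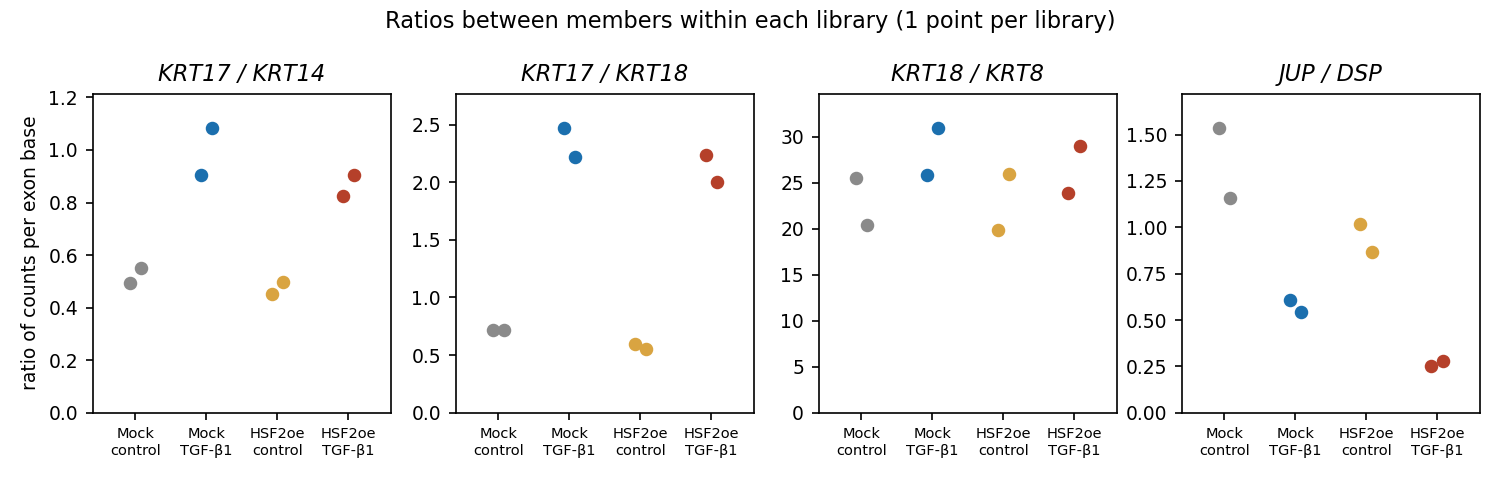
Ratio of 2 members within each library, as counts per base of annotated exon (linear axes from 0, 1 point per library). KRT17 relative to KRT14 and to KRT18 is higher in the 4 libraries with TGF-β than in the 4 controls. JUP relative to DSP is lower with TGF-β. KRT18 relative to KRT8 overlaps between control and TGF-β in HSF2oe cells. In Mock cells its nearest control and TGF-β libraries, at 25.5 and 25.8, are almost equal.

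Whether the TGF-β response itself differed between plasmids was tested as the difference of the 2 log2 changes. Of the 8 tested members 0 passed, as did 0 of all genes (0%) in edgeR's quasi-likelihood test. At an unadjusted p under 0.05 there were 977 of all genes (6.1%), and DESeq2 called 23. JUP had the lowest p among the members: its log2 change with TGF-β was lower in HSF2oe than in Mock cells by -0.42 (95% interval -0.80 to -0.03, unadjusted p = 0.037, adjusted p = 0.805). For KRT17 the difference was -0.01 (-0.31 to 0.30), for KRT14 0.05 (-0.36 to 0.46), for DSP 0.20 (-0.28 to 0.68) and for KRT18 -0.18 (-0.52 to 0.15). For KRT7 it was 0.05 (-0.45 to 0.55), for KRT8 -0.08 (-0.45 to 0.30) and for KRT81 0.88 (-0.76 to 2.52). The call of JUP in Mock cells and its lack in HSF2oe cells is thus not a difference that passed a test over all genes.

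Type I chains far outweighed type II chains in these counts. Summed over 29 type I and 26 type II keratin genes per kilobase of annotated exon, the ratio was 25.5 to 38.4 in control libraries and 37.7 to 50.9 with TGF-β. The 4 type I members made up 91.7% to 95.4% of the type I sum, and the 3 type II members 52.9% to 68.1% of the type II sum. KRT5, the usual type II partner of KRT14, held 0 to 13 counts per library. The KRT17 partners KRT6A, KRT6B and KRT6C held 0 in every library, where a count of 0 allows up to 0.195 CPM from counting error alone. Reads that fit more than 1 of them were not counted, and their shared sequence was not measured. Their 0 counts therefore do not bound their level. The long exon length annotated for KRT8 lowers the type II sum. Reads that fit several places were not counted, which can lower both sums. Shared windows were 41.3% for KRT8 and 52.5% for KRT18. Counts of named pseudogenes equalled 51.9% of those of KRT8 and 0.728% of those of KRT18. How much of the ratio comes from the counting was not tested.

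Of 48 other keratins, 26 had 0 counts in every library and 9 could be tested. With TGF-β 3 of these rose in Mock cells (KRT16, KRT80 and KRT86) and 2 in HSF2oe cells (KRT16 and KRT80), and 0 fell. Between plasmids 1 was lower in HSF2oe cells without TGF-β (KRT16), 2 were lower with it (KRT16 and KRT86), and 0 rose. The share of all genes that passed, in either direction, was 13.8% and 8.26% with TGF-β in Mock and HSF2oe cells. Between plasmids it was 12.1% without and 21.5% with TGF-β. KRT16, another wound keratin, had 5.66 and 4.40 CPM in Mock control, 19.1 and 16.0 with TGF-β, 2.18 and 2.26 in HSF2oe control, then 3.55 and 5.20 with TGF-β there. Its log2 change with TGF-β was 1.81 ± 0.20 SE in Mock and 0.96 ± 0.23 in HSF2oe cells, and that with the HSF2 plasmid was -1.17 ± 0.22 without and -2.02 ± 0.21 with TGF-β. KRT16 also shared 11.2% of the windows of KRT14. Its call with TGF-β in HSF2oe cells (adjusted p = 0.0192) was lost with only the libraries compared (0.0607), without either HSF2oe control library (0.108 and 0.0878) and without the second HSF2oe TGF-β library (log2 0.67, 0.185). Its fall without TGF-β (adjusted p = 0.00579) was lost without the first HSF2oe control library (0.0611). KRT80 rose by a log2 change of 0.84 ± 0.18 in Mock cells, lost without the second Mock control library (0.65, adjusted p = 0.0777), and by 0.67 ± 0.18 in HSF2oe cells. The latter was lost without either HSF2oe control library (0.194 and 0.104), without the second HSF2oe TGF-β library (log2 0.43, 0.314), with library totals alone (0.0881) and with only the libraries compared (0.0617). KRT86 held 9 to 29 counts and shares much of its sequence with KRT81, so its values are uncertain. Its log2 change was 2.12 ± 0.47 with TGF-β in Mock cells and -1.49 ± 0.46 with the HSF2 plasmid in TGF-β. The first call was lost without either Mock control library (adjusted p = 0.064 and 0.0602) or the second Mock TGF-β library (0.0502), and the second with library totals alone (0.0518), without any 1 of the 4 libraries compared (0.0677 to 0.239) and without either HSF2oe control library (0.0567 and 0.0571).

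Of 11 other desmosome genes, 6 could be tested, and the desmosomal cadherins DSG1 and DSG4 and the plakophilin PKP1 were at 0 counts in every library. With TGF-β 1 rose in Mock cells (DSG2), and in HSF2oe cells 1 rose (DSG2) and 1 fell (PKP3). In HSF2oe against Mock cells 1 fell without TGF-β (DSG2) and 2 fell with it (DSG2 and PKP3). Of all genes, 13.8% and 8.26% passed with TGF-β in Mock and HSF2oe cells, and 12.1% and 21.5% between plasmids without and with it. DSG2, a desmosomal cadherin, had 98.9 and 106 CPM in Mock control, 130 and 152 with TGF-β, 79.2 and 77.2 in HSF2oe control, then 103 and 104 with TGF-β there. Its log2 change with TGF-β was 0.47 ± 0.10 SE in Mock and 0.41 ± 0.10 in HSF2oe cells, and with the HSF2 plasmid -0.39 ± 0.10 without and -0.45 ± 0.10 with TGF-β (adjusted p of 0.00654, 0.0225, 0.0242 and 0.00683). With library totals alone none of these 4 calls passed (adjusted p = 0.147, 0.135, 0.0673 and 0.0755). Single libraries decided them too: the rise in Mock cells was lost without the first Mock control (0.0804) or second Mock TGF-β library (0.105), and the other rise without any 1 of the 4 libraries compared (0.0772 to 0.137). The fall in medium alone was lost without any 1 of the 4 libraries compared (0.0525 to 0.178), and that with TGF-β without the second Mock TGF-β (0.0991) or first HSF2oe TGF-β library (0.0574). PKP3, a plakophilin, ranged from 13.2 CPM in both HSF2oe TGF-β libraries to 25.1 in the first Mock control library. Its log2 change was -0.53 ± 0.13 with TGF-β in HSF2oe cells (adjusted p = 0.0219), a call lost without any 1 of the 4 libraries compared (0.0672 to 0.144), and -0.43 ± 0.13 with the HSF2 plasmid in TGF-β (adjusted p = 0.0346). The latter was lost with library totals alone (log2 -0.24, 0.223), with only the libraries compared (0.0566), and without the first Mock TGF-β library (0.211), the second HSF2oe control library (0.0501) or either HSF2oe TGF-β library (0.15 and 0.108).

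Of 12 plakins and cornified envelope genes 11 were found by name and 7 could be tested, and the envelope genes IVL, SPRR1B and FLG were at 0 counts in every library. With TGF-β 2 rose in Mock cells (EPPK1 and MACF1) and 1 in HSF2oe cells (EPPK1), and with the HSF2 plasmid 0 passed without TGF-β and 1 fell with it (EPPK1). The shares of all genes that passed in these comparisons, in the same order, were 13.8%, 8.26%, 12.1% and 21.5%. EPPK1 (epiplakin), which binds keratin filaments, held 11 to 59 counts. Its log2 change with TGF-β was 1.87 ± 0.37 SE in Mock cells (adjusted p = 0.00355), and that call held under every alternative. Its log2 change in HSF2oe cells was 1.80 ± 0.41, lost without either HSF2oe control library (adjusted p = 0.118 and 0.0559) or the second HSF2oe TGF-β library (0.0985). That with the HSF2 plasmid in TGF-β was -1.15 ± 0.35, lost with library totals alone and without any 1 of the 4 libraries compared (0.058 to 0.223). MACF1, a spectraplakin, had a log2 change of 0.46 ± 0.14 in Mock cells (adjusted p = 0.0401), which was lost with library totals alone (log2 0.19, 0.272), a stricter filter on low counts (0.0513) and only the libraries compared (0.0601). It was also lost without the first Mock control library (log2 0.28, 0.361), the second Mock TGF-β library (log2 0.27, 0.365) or either HSF2oe control library (0.0505 and 0.0516).

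Hemidesmosomes anchor keratins to the matrix rather than to neighbouring cells, and 6 of their genes were on the list and could be tested. With TGF-β 1 fell (COL17A1) in each plasmid group and 0 rose. Under the HSF2 plasmid 1 rose without TGF-β (LAMB3), and with it 1 rose (COL17A1) and 1 fell (CD151). Of all genes, 13.8% and 8.26% passed with TGF-β in Mock and HSF2oe cells, and 12.1% and 21.5% between plasmids without and with it. COL17A1, the transmembrane collagen of hemidesmosomes, had 3.63 and 3.74 CPM in Mock control, 0.781 and 0.738 with TGF-β, 6.26 and 5.21 in HSF2oe control, then 2.71 and 1.41 with TGF-β there. Its log2 change with TGF-β was -2.28 ± 0.35 in Mock and -1.44 ± 0.27 in HSF2oe cells, from counts down to 12 per library. The rise with the HSF2 plasmid in TGF-β, 1.47 ± 0.37, was lost without the second Mock TGF-β (adjusted p = 0.0942) or first HSF2oe TGF-β library (log2 0.91, 0.169). LAMB3, a laminin-332 chain, had a log2 change of 0.88 ± 0.23 with the HSF2 plasmid in medium alone, lost in DESeq2 (adjusted p = 0.0925) and without the second Mock control (0.166) or first HSF2oe control library (log2 0.51, 0.279). CD151, a tetraspanin, had one of -0.42 ± 0.10 with TGF-β, lost with library totals alone (log2 -0.23, 0.1) and without the first Mock TGF-β library (0.055).

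**Figure D4:**
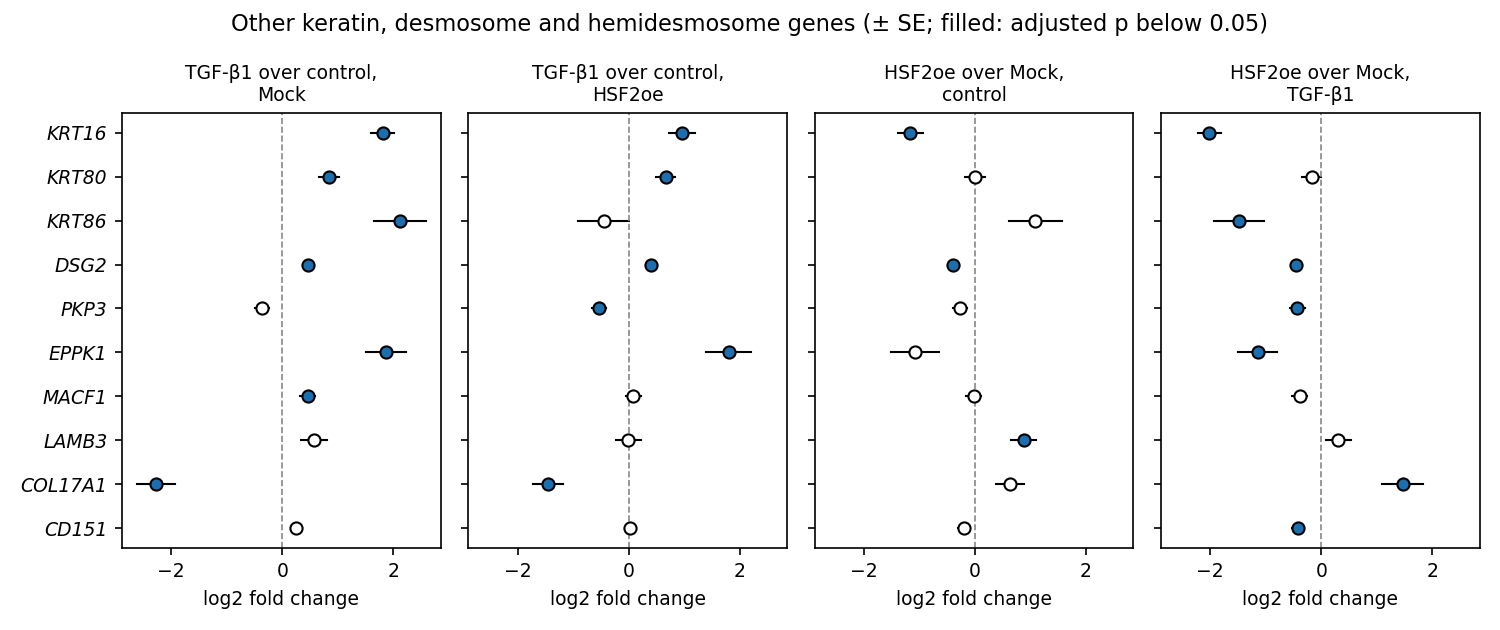
Fitted log2 fold change (± SE) of 10 other keratin, desmosome, plakin and hemidesmosome genes in the same 4 comparisons (filled points have an adjusted p below 0.05). KRT16 is above 0 in both TGF-β panels and below 0 in both HSF2oe panels, and COL17A1 is below 0 in both TGF-β panels.

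Of 18 transcription and splicing regulators tied to keratins or junctions, 11 could be tested. With TGF-β 3 rose (SNAI1, SNAI2 and ZEB1) and 2 fell (TP63 and ZEB2) in Mock cells, and 2 rose (SNAI1 and SNAI2) and 3 fell (TP63, ZEB2 and TFAP2C) in HSF2oe cells. With the HSF2 plasmid 2 rose without TGF-β (KLF4 and KLF5), 3 rose with it (KLF4, TFAP2A and ZEB2), and 0 fell. The shares of all genes that passed in these comparisons, in the same order, were 13.8%, 8.26%, 12.1% and 21.5%. TP63, the regulator of basal epithelial identity, had 1.76 and 1.96 CPM in Mock control, 0.195 and 0.344 with TGF-β, 1.61 and 2.05 in HSF2oe control, then 0.125 and 0.0426 with TGF-β there. Its fitted log2 change with TGF-β was -2.72 ± 0.49 SE in Mock and -4.29 ± 0.54 in HSF2oe cells, from counts down to 1 per library. SNAI1, a repressor of epithelial genes, rose by a log2 change of 2.49 ± 0.33 and 2.50 ± 0.36. ZEB1, another repressor, rose by 0.60 ± 0.11 in Mock cells, and its value in HSF2oe cells was 0.17 ± 0.11 (adjusted p = 0.431). ZEB2 fell by 0.53 ± 0.10 on the log2 scale in Mock cells. In HSF2oe cells its log2 change was -0.42 ± 0.10, lost without the first HSF2oe control or second HSF2oe TGF-β library (adjusted p = 0.179 and 0.178). With the HSF2 plasmid in TGF-β it was 0.40 ± 0.10, lost without the second Mock TGF-β or first HSF2oe TGF-β library (0.0877 and 0.111).

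Of 14 other intermediate filament genes 9 could be tested. With TGF-β 2 rose (NES and SYNM) and 4 fell (LMNA, LMNB1, LMNB2 and NEFL) in Mock cells, and 1 rose (NES) and 2 fell (LMNA and LMNB1) in HSF2oe cells. With the HSF2 plasmid 2 fell without TGF-β (SYNM and SYNC), and 2 rose (LMNB1 and LMNB2) and 2 fell (SYNM and SYNC) with it. The shares of all genes that passed in these comparisons, in the same order, were 13.8%, 8.26%, 12.1% and 21.5%. SYNM (synemin) fell by 1.20 ± 0.15 on the log2 scale with the HSF2 plasmid in TGF-β. Without TGF-β its log2 change was -0.73 ± 0.15, lost without the second Mock control library (-0.55, adjusted p = 0.108) or either HSF2oe control library (0.0625 and 0.053). Its rise with TGF-β in Mock cells, 0.77 ± 0.15, was lost without the first Mock control library (0.0516) or second Mock TGF-β library (0.51, 0.0584). LMNB1, a nuclear lamin, fell by 1.20 ± 0.10 with TGF-β in Mock cells and was higher by 0.61 ± 0.10 with the HSF2 plasmid in TGF-β. Its fall in HSF2oe cells, -0.49 ± 0.10, was lost without the second HSF2oe control or second HSF2oe TGF-β library (0.0945 and 0.0706). LMNA, the other main lamin gene, had log2 changes with TGF-β of -0.42 ± 0.10 in Mock and -0.49 ± 0.10 in HSF2oe cells. The first was lost without the first Mock control (0.0797) or either Mock TGF-β library (0.0761 and 0.0686), and the second without the second HSF2oe TGF-β library (0.0516). NES (nestin) had log2 changes of 0.69 ± 0.20 in Mock and 0.92 ± 0.19 in HSF2oe cells. The first was lost with library totals alone (0.42, adjusted p = 0.127) and without any 1 of the 4 libraries compared (0.0597 to 0.196), and the second without the second HSF2oe control or second HSF2oe TGF-β library (0.0576 and 0.0888).

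Summed levels of some marker lists of other cell states moved with the groups too. The summed level of the 9 mesenchymal markers was 36047 to 42336 CPM in Mock control, 64865 to 73488 with TGF-β, 34103 to 34493 in HSF2oe control and 49024 to 51443 with TGF-β. FN1 alone held 25204 to 54264 CPM by library, so this sum mostly follows that gene. Of the mesenchymal markers 5 rose (CDH2, FN1, PDGFRB, SPARC and ZEB1) and 2 fell (S100A4 and ZEB2) with TGF-β in Mock cells, and in HSF2oe cells 4 rose (CDH2, FN1, PDGFRB and SPARC) and 2 fell (S100A4 and ZEB2). With the HSF2 plasmid 0 rose and 3 fell without TGF-β (PDGFRB, SPARC and THY1), and with it 1 rose (ZEB2) and 4 fell (CDH2, PDGFRB, SPARC and THY1). The 9 basal or myoepithelial markers summed to 1807 to 1933, 2257 to 2510, 1264 to 1573 and 1378 to 1646 CPM in the same order of groups, with 6 above 1 CPM in every library, TP63 at 2.05 CPM or less and KRT6A at 0. Of the 7 basal markers tested, 3 rose (ACTA2, CNN1 and OXTR) and 2 fell (CAV1 and TP63) with TGF-β in each plasmid group. Between plasmids 3 were lower in HSF2oe cells without TGF-β (ACTA2, CNN1 and OXTR) and 4 with it (the same and MYLK). The 8 luminal markers, 4 of which passed 1 CPM in every library, summed to 312 to 376, 476 to 502, 255 to 301 and 352 to 395 CPM. XBP1 alone held 226 to 476 CPM by library, so this sum mostly follows that gene. Of the 4 luminal markers tested, 1 rose (XBP1) and 0 fell with TGF-β in Mock cells, and 1 rose (XBP1) and 1 fell (MUC1) in HSF2oe cells. Between plasmids 1 was higher in HSF2oe cells without TGF-β (GATA3), and with it 1 was higher (GATA3) and 2 were lower (MUC1 and XBP1). Of the 3 epithelial markers tested 0 passed in any comparison. Of 7 blood and endothelial markers 1 (PECAM1) passed 1 CPM in every library, CD3E and HBB were at 0, and the sum was 2.39 to 6.52 CPM. Of the 3 tested, 2 fell with TGF-β in HSF2oe cells (PECAM1 and PTPRC), 1 fell with the HSF2 plasmid in TGF-β (PTPRC), and 0 passed in the other comparisons. Of all genes, 13.8% and 8.26% passed with TGF-β in Mock and HSF2oe cells, and 12.1% and 21.5% between plasmids without and with it. The part of the marker changes in the changes of the keratins and plaque genes was not tested.

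Scaling moved together with TGF-β as well. TMM factors were 0.857 to 1.01 in the 4 libraries with TGF-β and 1.03 to 1.11 in the 4 controls. With library totals alone the median log2 change of all genes moved by -0.26 for TGF-β in Mock cells, -0.16 for TGF-β in HSF2oe cells, 0.09 for HSF2oe without TGF-β and 0.19 with it, and 608 genes rose and 3885 fell with TGF-β in Mock cells, against 1172 and 1040 with TMM. In HSF2oe cells these were 452 and 1593 against 712 and 611. Between plasmids they were 1432 and 807 against 781 and 1156 without TGF-β, and 3526 and 1073 against 1537 and 1912 with it. The changes of KRT17, DSP and KRT14 with TGF-β, of KRT17 with the HSF2 plasmid in both media, and of JUP with the HSF2 plasmid in TGF-β passed under every alternative, 9 of the 17 calls of members.

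By level across the 8 libraries, the genes most like KRT17 among 11676 expressed genes were VASP (Pearson r = 0.999), ARF4 (0.994) and FERMT2 (0.993). Those most like DSP were WWTR1 (0.991), RALA (0.990) and MBOAT2 (0.990), and those most like KRT18 were STK32C (0.984), SMIM14 (0.978) and HCN2 (0.970). The 8 libraries fall into the 4 groups, so any gene with the same pattern of group means scores high, and these values only describe likeness.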

How the data were processed

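RNA sequencing libraries of HS578T cells (4 groups of 2) were analysed from the count table the authors deposited. Read pairs were counted per gene by the authors with featureCounts 2.0.1 against GENCODE release 38, per the file headers, with no strand option and without reads that map to several places, although the labels name a stranded kit. The submitters' processing notes list STAR 2.7.9a, Subread 2.0.1 and edgeR 3.34.1. The log2 CPM values that the authors deposited for 13169 genes hold 7 of the 10 members and lay within 0.0226 of TMM log2 CPM recomputed with a prior count of 2, so they served only as an alternative.

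Counts were tested with edgeR 4.0.16 (R 4.3.3): filterByExpr by group (16008 genes), TMM scaling, 1 mean per group over all 8 libraries, quasi-likelihood F-tests, 2-sided, with Benjamini-Hochberg adjustment over all of them and a cutoff of 0.05. The SE is the absolute log2 change divided by the square root of F, and 95% intervals use 4 residual and 9.206 prior degrees of freedom. The script was tested on simulated data. Replicates of a group differed by a chi-square of 12.5 to 26.8 per degree of freedom, far above sampling noise, so no pair looked like 1 library under 2 names.

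The members, the gene lists (other keratins, other desmosome genes, plakins and cornified envelope, hemidesmosome, regulators, other intermediate filaments and 5 marker lists) and the tests were chosen with earlier results of these data known. Named companions are the genes of a list past the threshold in any comparison, at most the 4 with the smallest p, and the 3 genes most like KRT17, KRT18 and DSP among tested genes whose mean log2 CPM reached 1. Other list and marker genes are named only to complete a count or to show what a sum rests on, after their values were seen. Their stability was not examined. Alternatives were library totals, DESeq2 size factors in edgeR, no filter or a stricter one on low counts, DESeq2 1.42.0, limma-trend (limma 3.58.1) on the deposited log2 CPM, only the libraries compared, a replicate block, pseudogene counts added to members, each library left out, and, added after the data were seen, transcript length for levels. Positions come from the count table, sequences from GENCODE 29 transcripts and RefSeq promoters, both GRCh38. Results of 2 genes of these lists are not reported here.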

Additional observations from a re-analysis of the deposited data

How the results depend on the processing

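Of 40 member results, 17 passed the threshold. None of these 17 changed direction under any alternative, and 9 passed under all of them. Of the other 23, 9 changed direction under some alternative and 5 passed under at least 1. Among these 5, KRT18 for HSF2oe without TGF-β passed under 3 alternatives and DSP for HSF2oe with TGF-β under 2. With library totals alone the count of members called with HSF2oe in TGF-β was 3 instead of 5, and the count of genes called was 4493 instead of 2212 for TGF-β in Mock and 2045 instead of 1323 in HSF2oe cells. It also reversed the log2 change with TGF-β of KRT18 in Mock (-0.16) and of JUP in HSF2oe cells (-0.14), and the differences of TGF-β effects of KRT8 (0.0189) and KRT17 (0.10). That of KRT17 was 0.0157 with no low-count filter. For the difference of effects 83 genes passed with no low-count filter and 23 in DESeq2, against 0. The cause was not tested.

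Members called with 1 library left out numbered 3 to 5 (TGF-β in Mock), 3 to 4 (in HSF2oe), 1 to 3 (HSF2oe without TGF-β), 2 to 5 (with TGF-β) and 0 for the difference. They were 3 without either Mock control library for TGF-β in Mock cells, 1 without the first Mock control or either HSF2oe control library for HSF2oe without TGF-β, and, for HSF2oe with TGF-β, 3 without the first Mock TGF-β or second HSF2oe TGF-β library and 2 without the first HSF2oe TGF-β library. Genes called ran from 1143 to 2266, 673 to 1334, 368 to 1993, 1509 to 3331 and 0 in the same order. Changes of sign of uncalled members came with KRT18 (-0.17 to 0.0315) and JUP (-0.13 to 0.17) for TGF-β in HSF2oe cells and DSP for HSF2oe without TGF-β (-0.15 to 0.26). They also came, for the difference of effects, with KRT7 (-0.0544 to 0.17), KRT8 (-0.19 to 0.0389), KRT14 (-0.13 to 0.26), KRT17 (-0.0812 to 0.0902) and DSP (-0.0111 to 0.46). Leaving out 1 library leaves a group with 1, which is assumed to vary like the others.

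The titles number the replicates of each group alike, but nothing says that a number marks a shared culture or day, and only 2 pairs exist per comparison. Deviations from the group means correlated by 0.160 to 0.443 between groups. With a replicate block 5 members were called with HSF2oe without TGF-β, KRT8 (adjusted p = 0.0285) and KRT18 (0.00923) beside the other 3, and 6 with TGF-β, DSP (log2 0.25, 0.0289) among them. Genes called with the block were 3350 and 2366 for TGF-β in Mock and HSF2oe cells, 3614 against 1937 for HSF2oe without TGF-β, and 78 against 0 for the difference.

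With 2 libraries per group, the spread behind each p-value was pooled over the 4 groups. It was also drawn toward that of other genes (4 residual and 9.206 prior degrees of freedom). It covers only differences between these libraries. KRT19, PKP2 and KRT81 are limited by depth. Without the low-count filter KRT19 and PKP2 had adjusted p of 0.773 to 1.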
